A study of Rattus norvegicus with 6 samples.

Results

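The insulin-like growth factor (IGF) system of the rat ovary is described here through 10 genes: the ligands Igf1 and Igf2, the receptors Igf1r and Igf2r, and the binding proteins Igfbp1 to Igfbp6. Every probe set that the array's annotation gives to 1 of these genes alone was taken, which made 23 probe sets of 31042 tested and 10 genes of 14217 named on the array. Female rats were fed liquid diets through a tube into the gut, known as total enteral nutrition. Over 28 days the overfed group received 220 kcal and the lean group 155 kcal per kg of metabolic body weight. Both groups were then mated with lean males, and whole ovaries were frozen at 4.5 days post coitum. Each of the 6 Affymetrix arrays held 1 pool of ovary RNA, 3 overfed and 3 lean. Neither the age nor the number of animals in a pool is given in the labels used here, so the p-values measure the spread between these pools, which may be technical in part.

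IGF ligands are small hormones related to insulin. Both bind the receptor tyrosine kinase Igf1r, whereas Igf2r binds Igf2 and carries it to lysosomes for breakdown. In body fluids most of the IGF is held by binding proteins, which lengthen its life and keep it from the receptor until a protease frees it. In the rodent ovary Igf1 is made by granulosa cells of growing follicles and enhances their response to follicle-stimulating hormone, and several binding proteins are made in follicles that degenerate, in theca and in the connective tissue around them.

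None of the 10 genes differed between overfed and lean ovaries beyond the spread of the pools. Their differences ran from 0.48 (Igf1) to -0.38 (Igf1r) on the log2 scale, and 9 probe sets were higher and 14 lower in the overfed pools. The median difference over the 23 was -0.05, against 0.01 over all tested probe sets. In limma, a linear model fitted across all probe sets, 0 of the 23 had an adjusted p under 0.05 and 0 had an unadjusted p under 0.05, where 6.67% of all probe sets had the latter (3.31% higher and 3.36% lower in overfed pools). The groups did not overlap in 1 of the 23, against 12.7% of all probe sets. Over the whole array 0 probe sets passed limma's adjusted threshold and 2070 had an unadjusted p under 0.05. Overfed pool 1 and lean pool 3 varied most over all probe sets, with an SD of 0.29 and 0.24, against 0.14 to 0.20 in the other 4 pools. With both left out, 0 of the 23 had an unadjusted p under 0.05 in limma, against 5.46% of all probe sets.

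What the members did show was a spread between pools larger than that of most probe sets. The SD over the 6 pools had a median of 0.34 over the 23, against 0.14 over all. The 3 probe sets of Igf1, both of Igfbp6 and 4 of the 5 of Igfbp5 had an SD above that of at least 95% of probe sets. Before deposit each value had been set against the median of its probe set over the 6 pools, on a log scale read here as log2. The levels themselves are therefore unknown, and no gene can be ranked against another. The ovary's own markers can for this reason be compared between pools but not checked for presence. In RNA from a whole organ, fewer cells of a type and less RNA per cell cannot be told apart.

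**Figure D1:**
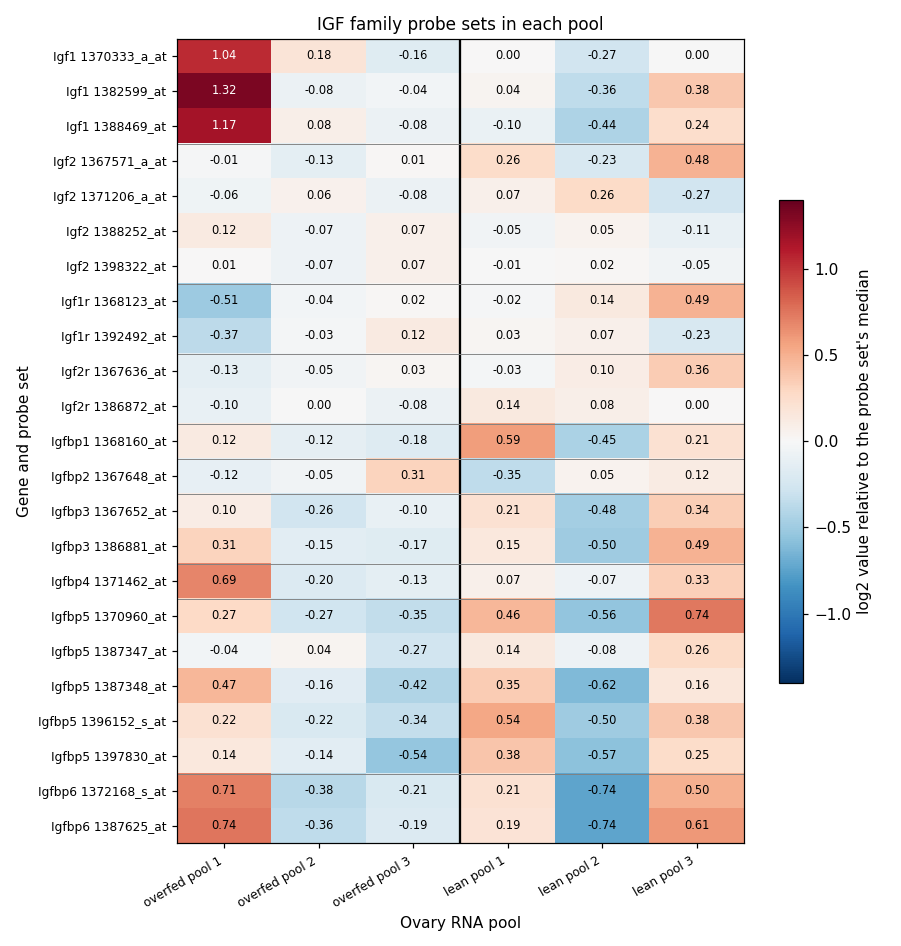
Log2 value relative to the probe set's median over 6 pools (colour and number) for the 23 probe sets of the 10 IGF genes (rows) in 3 overfed and 3 lean ovary pools (columns). The probe sets of Igf1 are highest in overfed pool 1, at 1.04 to 1.32, and most of those of Igfbp3, Igfbp5 and Igfbp6 are lowest in lean pool 2.

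The promoters of 4 members are shown, those whose windows held a match to the Egr1 or FOXO letters given below. Searched for were the known binding letters of 3 regulators of interest. They are Egr1, the transcription factor named in the series' title, the FOXO factors, through which insulin represses Igfbp1, and the TATA-binding protein. Each sequence is RefSeq's window from 250 bases before to 50 bases after an annotated transcript start, in build GRCr8, written 5′ to 3′ on the gene's strand. Capitals mark matches on either strand to GCGNGGGCG (Egr1) or CAAAANA (the FOXO or insulin response letters), which did not overlap each other.
Igf1, chr7:24172282-24172581, plus strand: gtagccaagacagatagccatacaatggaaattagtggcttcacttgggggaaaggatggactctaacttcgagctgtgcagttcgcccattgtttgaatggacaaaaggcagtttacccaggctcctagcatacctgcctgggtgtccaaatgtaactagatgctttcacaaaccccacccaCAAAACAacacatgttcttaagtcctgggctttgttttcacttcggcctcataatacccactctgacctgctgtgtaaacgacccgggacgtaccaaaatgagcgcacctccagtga
Igf1r, chr1:130959747-130960046, plus strand: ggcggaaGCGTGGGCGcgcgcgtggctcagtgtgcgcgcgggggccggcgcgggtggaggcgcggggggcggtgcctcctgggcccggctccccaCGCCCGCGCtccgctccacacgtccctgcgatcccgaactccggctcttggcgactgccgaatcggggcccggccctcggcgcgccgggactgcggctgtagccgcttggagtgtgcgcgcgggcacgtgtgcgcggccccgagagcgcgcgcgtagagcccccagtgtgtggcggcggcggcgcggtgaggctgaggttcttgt
Igfbp1, chr14:86261027-86261326, plus strand: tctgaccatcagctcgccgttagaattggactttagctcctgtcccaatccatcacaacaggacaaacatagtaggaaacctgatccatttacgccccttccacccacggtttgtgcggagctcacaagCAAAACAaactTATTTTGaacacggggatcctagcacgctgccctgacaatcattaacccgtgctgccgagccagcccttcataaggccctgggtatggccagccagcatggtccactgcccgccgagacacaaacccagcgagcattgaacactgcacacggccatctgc
Igfbp5, chr9:81914138-81914437, minus strand: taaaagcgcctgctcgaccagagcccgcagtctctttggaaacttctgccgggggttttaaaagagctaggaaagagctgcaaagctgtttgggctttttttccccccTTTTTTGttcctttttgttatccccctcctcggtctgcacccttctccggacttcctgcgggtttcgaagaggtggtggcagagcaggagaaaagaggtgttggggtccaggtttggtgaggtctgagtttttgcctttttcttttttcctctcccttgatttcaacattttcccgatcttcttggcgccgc
The Igf1r window held 2 matches to the Egr1 letters, the first from base -243 to -235 and the second, on the opposite strand, from -155 to -147. It was the only one among the 11 member windows with such a match, and 4.98% of the 33465 windows searched had at least 1. In Igfbp1 the insulin response letters stood on both strands, as CAAAACA from -121 to -115 and in reverse as TATTTTG from -110 to -104, which together form the inverted repeat for which this promoter is known. Igf1 and Igfbp5 had 1 match each, and 19.5% of all windows had at least 1. TATAAA occurred in the Igfbp4 window alone among the members, from -40 to -35, and in 14.2% of all windows. Igf2 had 2 windows, and neither of them nor those of Igf2r, Igfbp2, Igfbp3 and Igfbp6 held any of these letters. A match describes the letters, not binding in these ovaries.

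Igf1, the ligand of growing follicles and the main mediator of growth hormone, was set apart by a single overfed pool. Its probe set 1370333_a_at read 1.04, 0.18 and -0.16 in overfed pools 1 to 3, against 0.00090, -0.27 and -0.00090 in lean pools 1 to 3. Overfed pool 1 stood well above all others, while overfed pool 2 lay above the lean pools and overfed pool 3 among them. The difference was 0.44 (SE 0.29, 95% interval -0.24 to 1.12), 1.36-fold, with a limma unadjusted p of 0.167 and adjusted p of 0.841. Permuting the pools exactly, two-sided, gave p = 0.3. With 3 pools against 3, no permutation p can fall below 0.1.

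Both further probe sets of Igf1 had the same high pool. Probe set 1382599_at read 1.32, -0.08 and -0.04 in the overfed pools, against 0.04, -0.36 and 0.38 in the lean pools, a difference of 0.38 (SE 0.39). For 1388469_at the values were 1.17, 0.08 and -0.08 in the overfed pools, against -0.10, -0.44 and 0.24 in the lean pools, a difference of 0.48 (SE 0.34). All 3 were highest in overfed pool 1 and lowest in lean pool 2, and their pairwise Pearson correlations over the 6 pools were 0.93 to 0.98. The pools between these were ordered differently, since overfed pool 2 lay above lean pool 3 in 1370333_a_at and below it in the other two. Without overfed pool 1 the 3 differences were 0.10, -0.08 and 0.10. Without overfed pool 3 the first of them was 0.70, at a limma unadjusted p of 0.0346 and an adjusted p of 0.911.

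Overfed pool 1 also stood apart in other ways. The mean of 5 luteal markers was -0.62 there, the lowest of the 6 pools, against 0.12 and 0.06 in overfed pools 2 and 3 and -0.47 to 0.23 in the lean pools. Among these markers the luteinizing hormone receptor gene Lhcgr read -0.97 and Star, which brings cholesterol into mitochondria for steroid synthesis, -0.46. The mean of 4 theca and interstitial markers was 0.53 there, against -0.10 and 0.20 in the other overfed pools and -0.15 to -0.09 in the lean pools. The theca and interstitial markers were uneven in overfed pool 1: Col1a1 read 1.04, Pdgfra 0.60, Cyp17a1 0.54 and Insl3 -0.08. Of the luteal list, 1 of 5 genes was higher and 4 lower over all overfed pools, and of the theca list 4 of 4 were higher. The mean of 5 granulosa markers, from the cells known to make Igf1, was -0.28 in overfed pool 1, also the lowest of the 6 pools, against 0.06 and 0.19 in overfed pools 2 and 3 and -0.17 to -0.02 in the lean pools. That low mean leaned on Nr5a2, at -0.86 there, beside -0.27 for Cyp19a1, -0.23 for Foxl2, -0.16 for Inha and 0.10 for Amh. Of the 5 granulosa markers, 3 were higher and 2 lower over all overfed pools. The part of any of these lists in the Igf1 values was not tested.

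The genes whose pool pattern was most like that of Igf1 were Pcp4l1, C1qtnf3 and Aebp1. C1qtnf3 encodes a secreted protein of the C1q and tumour necrosis factor related family, and Aebp1 a secreted protein of collagenous matrix. Pearson's r with Igf1 probe set 1382599_at was 0.997 for Pcp4l1, 0.996 for C1qtnf3 and 0.995 for Aebp1 over 6 pools, and Spearman's rho was 0.943, 1 and 0.943. They were picked as the highest of 3780 genes with an SD of at least 0.2, so no p is given. With overfed pool 1 and lean pool 3 left out, r over the remaining 4 pools was 0.954, 0.961 and 0.937. The genes were chosen on values that include these 4 pools, so this r is no separate check. C1qtnf3 read 1.43 in overfed pool 1, beside 1.32 for Igf1.

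Igf2, the growth factor of the fetus and placenta whose gene is imprinted, had 4 probe sets that did not tell the same story. Probe set 1367571_a_at read -0.01, -0.13 and 0.01 in the overfed pools, against 0.26, -0.23 and 0.48 in the lean pools. The overfed pools lay close together inside the wide range of the lean ones. The difference was -0.21 (SE 0.18, limma adjusted p = 0.876). Probe set 1371206_a_at read -0.06, 0.06 and -0.08 in the overfed pools, against 0.07, 0.26 and -0.27 in the lean pools, the reverse lean order. The remaining probe sets 1388252_at and 1398322_at differed by 0.08 (SE 0.09) and 0.02 (SE 0.08), and 1398322_at had an SD over pools larger than that of only 3.30% of probe sets. Pairwise correlations among the 4 went from -0.76 to 0.75 over 6 pools.

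The receptors were lower in overfed ovaries in each of their 4 probe sets, none of them past the threshold. Igf1r, which passes the signal of both ligands into the cell, read -0.51, -0.04 and 0.02 in overfed pools 1 to 3 with probe set 1368123_at, against -0.02, 0.14 and 0.49 in lean pools 1 to 3. Overfed pool 1, which held the highest Igf1 values, held the lowest Igf1r value, and lean pool 3 the highest. The difference of -0.38 (SE 0.18, 95% interval -0.81 to 0.05) had the lowest p of all members, a limma unadjusted p of 0.077 and an adjusted p of 0.799, and the exact permutation test gave p = 0.2. Without overfed pool 1 it was -0.21, and without both that pool and lean pool 3 it was -0.07. Its other probe set, 1392492_at, read -0.37, -0.03 and 0.12 in the overfed pools, against 0.03, 0.07 and -0.23 in the lean pools, a difference of -0.05 (SE 0.15). Both probe sets were lowest in overfed pool 1, but lean pool 3 was the highest pool in one and the lowest lean pool in the other, and their correlation over 6 pools was 0.30. Egr1, whose letters the Igf1r window holds, differed by 0.21 (SE 0.20, limma adjusted p = 0.888), with 0.31 in overfed pool 1 and also in lean pool 1.

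**Figure D2:**
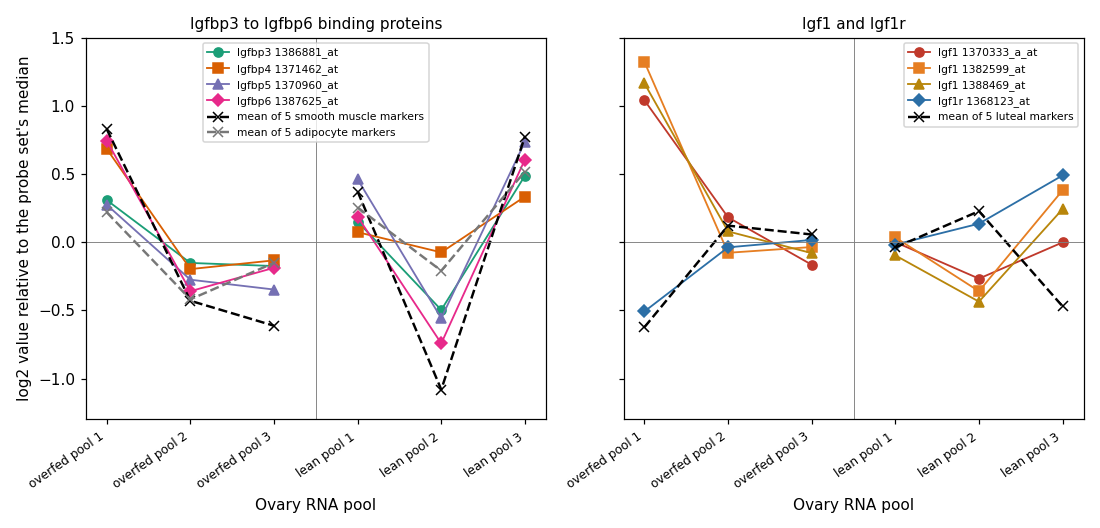
Log2 value relative to the median over 6 pools (y axis) in each ovary pool (x axis, overfed left of lean), for 1 probe set each of Igfbp3 to Igfbp6 with the means of 5 smooth muscle and 5 adipocyte markers (left), and for the Igf1 probe sets and Igf1r 1368123_at with the mean of 5 luteal markers (right). Lines join the pools of a group for reading only; the binding proteins and both marker means are above 0 in overfed pool 1 and lean pools 1 and 3 and below 0 in the other pools, and overfed pool 1 is high in Igf1 and low in Igf1r and luteal markers.

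Igf2r, the receptor that clears Igf2 and also sorts enzymes to the lysosome, had the 1 probe set among the 23 whose groups did not overlap. Probe set 1386872_at read -0.10, -0.0026 and -0.08 in the overfed pools, against 0.14, 0.08 and 0.0026 in the lean pools. The highest overfed and the lowest lean pool were only just apart. The difference was -0.14 (SE 0.08, 95% interval -0.33 to 0.05), or 1.10-fold lower, with a limma unadjusted p of 0.129 and an adjusted p of 0.829. Exact permutation gave p = 0.1, the smallest that 3 against 3 pools allow. Probe set 1367636_at read -0.13, -0.05 and 0.03 in the overfed pools, against -0.03, 0.10 and 0.36 in the lean pools, a difference of -0.19 (SE 0.12). With the probe sets of a gene averaged, Igf2r differed by -0.17 (SE 0.07, limma unadjusted p = 0.0582, adjusted p = 0.711), the lowest p of the 10 genes in that fit.

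**Figure D3:**
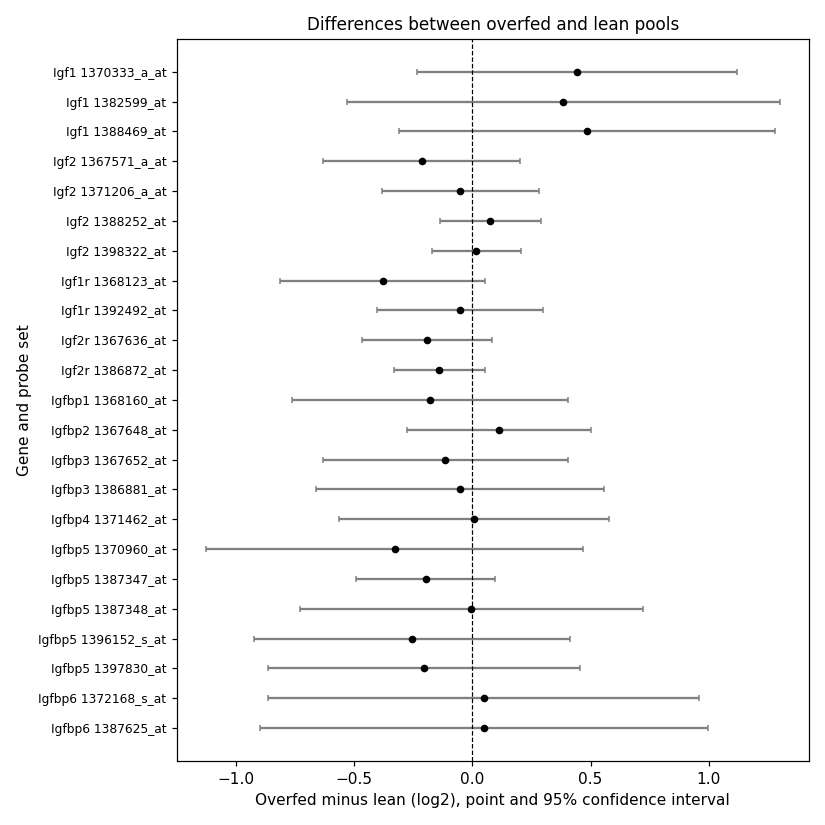
Difference of overfed minus lean on the log2 scale (points) with its 95% confidence interval from limma (bars) for the 23 probe sets, 3 pools per group. All 23 intervals include 0, and those of Igf1, Igfbp6 and most of Igfbp5 are the widest.

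Igfbp1, made chiefly by liver and decidua and repressed by insulin, read 0.12, -0.12 and -0.18 in the overfed pools, against 0.59, -0.45 and 0.21 in the lean pools. The lean pools held both the highest and the lowest value. Its difference was -0.18 (SE 0.25, 95% interval -0.76 to 0.41, limma adjusted p = 0.930). It was 0.05 without lean pool 1 and -0.46 without lean pool 2. The liver gene Alb was also high in lean pool 1, at 2.09, but was higher still in overfed pool 1, at 3.75, where Igfbp1 read 0.12. The 4 liver markers, 3 of them higher and 1 lower in overfed ovaries, averaged 0.94, 0.03 and -0.28 in the overfed pools, against 0.53, -0.22 and 0.08 in the lean pools. The high means in overfed pool 1 and lean pool 1 came from Alb. Apoa1, Ttr and Serpina1 read -0.20, -0.02 and 0.23 in overfed pool 1, and -0.19, 0.02 and 0.22 in lean pool 1. The part of the liver markers in the Igfbp1 values was not tested.

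Igfbp2, abundant in fetal fluids and serum, had a pool order of its own. It read -0.12, -0.05 and 0.31 in the overfed pools, against -0.35, 0.05 and 0.12 in the lean pools. It was lowest in lean pool 1, where the other 11 binding protein probe sets were all above their medians, and highest in overfed pool 3, where the other 11 were all below. The difference was 0.11 (SE 0.17, 95% interval -0.28 to 0.50, limma adjusted p = 0.936). Igfbp2 lies next to Igfbp5 on chromosome 9, with no protein-coding gene between them in RefSeq's annotation of GRCr8, and Igfbp1 likewise next to Igfbp3 on chromosome 14. The neighbours Igfbp2 and Igfbp5 did not share a pool order. Igfbp1 and Igfbp3 were both lowest in lean pool 2, as were 9 of the 12 binding protein probe sets, but Igfbp1 was highest in lean pool 1 and Igfbp3 in lean pool 3.

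Igfbp3, Igfbp4, Igfbp5 and Igfbp6 moved together from pool to pool, in both groups. Their 10 probe sets were all above their medians in lean pools 1 and 3 and all below in lean pool 2 and overfed pool 3. In overfed pool 1, 9 of the 10 were above, and in overfed pool 2, 9 were below. The pattern was not theirs alone. Igfbp1 and Igf1 probe set 1382599_at lay above and below their medians in the same pools as most of the 10. Over all probe sets of the array, by contrast, 52.1% were above their median in lean pool 2 and 46.8% in lean pool 3. This sorting of pools cuts across diet, since each diet had pools on both sides. In median-centred values that holds for any probe set whose groups overlap, and only 12.7% of all probe sets had groups that did not.

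Igfbp3, the main carrier of IGFs in blood, read 0.31, -0.15 and -0.17 in the overfed pools with probe set 1386881_at, against 0.15, -0.50 and 0.49 in the lean pools. The difference was -0.05 (SE 0.26, limma adjusted p = 0.982). Its probe set 1367652_at had 0.10, -0.26 and -0.10 in the overfed pools, against 0.21, -0.48 and 0.34 in the lean pools, a difference of -0.11 (SE 0.22). Both ranked lean pool 2 lowest and lean pool 3 highest. Igfbp4, an inhibitor of IGF action known in the rat from degenerating follicles, read 0.69, -0.20 and -0.13 in the overfed pools, against 0.07, -0.07 and 0.33 in the lean pools. The difference was 0.0070 (SE 0.24), with the sign turned to -0.0011 by centring each array on its median and to -0.06 by quantile normalization.

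Igfbp5, which binds extracellular matrix, had 5 probe sets, the most of any member. Probe set 1370960_at read 0.27, -0.27 and -0.35 in the overfed pools, against 0.46, -0.56 and 0.74 in the lean pools. The lean pools covered the whole range of the overfed ones and went beyond it on both sides. The difference was -0.33 (SE 0.34, 95% interval -1.13 to 0.47, limma adjusted p = 0.900). The 4 other probe sets differed by -0.20 (1387347_at), -0.0040 (1387348_at), -0.25 (1396152_s_at) and -0.20 (1397830_at). Of the 5, the RefSeq mRNA probe set 1387347_at varied least, with an SD over pools of 0.18 against 0.41 to 0.51 in the others, and was lowest in overfed pool 3 rather than lean pool 2.

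Igfbp6, which prefers Igf2 to Igf1, had the widest spread of the binding proteins and almost no difference by diet. Probe set 1387625_at read 0.74, -0.36 and -0.19 in the overfed pools, against 0.19, -0.74 and 0.61 in the lean pools. Each group had high and low pools, and the 2 groups overlapped over most of their range. The difference was 0.05 (SE 0.40, 95% interval -0.90 to 1.00, limma adjusted p = 0.990), with the sign turned to -0.06 by quantile normalization. Its second probe set, 1372168_s_at, differed by 0.05 (SE 0.39), and the correlation between both over 6 pools was 0.998. With 3 pools per group, that interval leaves room for a true difference of either sign, and no smallest detectable difference was computed.

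Of the 10 marker lists read, 2 had a mean above and below 0 in the same pools as Igfbp6, those of smooth muscle and of adipocytes. The mean of the 5 smooth muscle genes was 0.83, -0.43 and -0.61 in overfed pools 1 to 3, against 0.37, -1.08 and 0.77 in lean pools 1 to 3. Acta2, the actin of smooth muscle, read 0.66, -0.56 and -0.28 in the overfed pools, against 0.28, -0.85 and 1.51 in the lean pools, and the myosin gene Myh11 read 0.54, -0.24 and -0.57, against 0.24, -0.99 and 0.29. By diet 1 of the 5 was higher and 4 were lower in overfed pools, and 0 had a limma unadjusted p under 0.05. The mean of the 5 adipocyte genes was 0.22, -0.42 and -0.15 in the overfed pools, against 0.25, -0.21 and 0.52 in the lean pools. Adipoq, a hormone of fat cells, read 0.44, -0.33 and -0.28 in the overfed pools, against 0.28, -0.48 and 0.79 in the lean pools, and Lep, the gene of leptin, 0.09, -0.14 and -0.10, against 0.28, 0.04 and -0.04. Lep departed from the signs of the mean in lean pools 2 and 3. Plin1 did so in lean pools 1 and 2, at -0.03 and 0.0037. Adipoq, Cidec and Fabp4 had the signs of the mean in every pool. All 5 adipocyte genes were lower by diet, with 0 at a limma unadjusted p under 0.05. The lists differed in detail: overfed pool 2 lay below overfed pool 3 in Igfbp4, Igfbp6 and the adipocyte mean, and above it in the smooth muscle mean. Since the values are centred, it is unknown how much smooth muscle or fat RNA any pool held, and the part of either in the binding protein values was not tested. Of 8 markers listed for oviduct and ciliated epithelium 6 were measured, and all 6 were lower by diet. Of these, 4 had a limma unadjusted p under 0.05 and 0 an adjusted one. Over all named genes 7.15% had such an unadjusted p, 4.47% lower in overfed pools. The groups did not overlap in Foxj1 and Rsph1 alone of the 6, against 13.1% of all named genes. The mean of this list was -0.39, -0.21 and -0.79 in overfed pools 1 to 3, against 0.54, -0.07 and 0.80 in the lean pools.

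The genes closest to Igfbp6 in pool pattern were Fxyd1, a small regulator of the sodium pump, Olfml3, a secreted matrix protein, and Gal3st4, a galactose sulfotransferase. Their Pearson's r with probe set 1387625_at was 0.994, 0.992 and 0.991 over 6 pools, with Spearman's rho of 0.943, 1 and 1. Without overfed pool 1 and lean pool 2, r over 4 pools was 0.987, 0.983 and 0.989. For Igfbp3, probe set 1386881_at, the closest were Filip1l, Pcsk1n, an inhibitor of a prohormone convertase, and Reep1, a protein that shapes the endoplasmic reticulum. Pearson's r was 0.996, 0.986 and 0.985 over 6 pools, with Spearman's rho of 1, 1 and 0.943, and r was 0.991, 0.971 and 0.972 without lean pools 2 and 3. As for Igf1, these genes were the highest of 3780, chosen on all 6 pools, so r over 4 of the pools is no separate check. Each r describes only these 6 pools.

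The differences of the binding proteins depended on which pools were included. Without lean pool 2, 6 of the 23 member probe sets had a limma unadjusted p under 0.05, all lower in overfed pools, where 7.30% of all probe sets had such a p in that fit. They were Igf2 1367571_a_at at -0.41 (limma adjusted p = 0.496), Igfbp1 at -0.46 (adjusted p = 0.591), Igfbp3 1367652_at at -0.37 (adjusted p = 0.633) and 3 probe sets of Igfbp5. Those were 1370960_at at -0.71 (limma adjusted p = 0.518), 1396152_s_at at -0.57 (adjusted p = 0.545) and 1397830_at at -0.50 (adjusted p = 0.681). The adjusted p of Igf2 was the lowest of any member with 1 pool left out. Without lean pool 3, which was high in the same genes, the difference of Igfbp5 1370960_at was -0.07 and that of Igfbp3 1367652_at turned to 0.04. Igfbp4 went furthest below 0, to -0.28, without overfed pool 1, and Igfbp2 turned to -0.03 without lean pool 1. Without overfed pool 1 the Igfbp6 difference was -0.29 and without lean pool 3 it was 0.34.

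**Figure D4:**
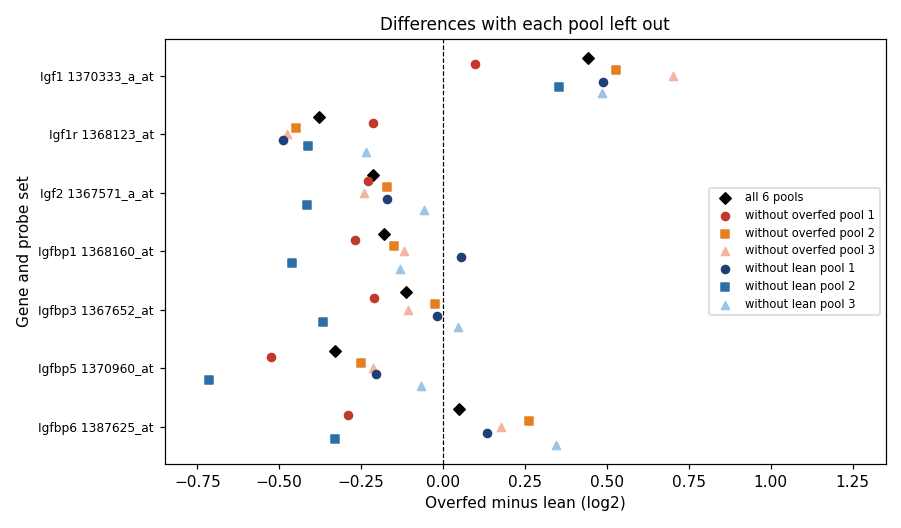
Difference of overfed minus lean on the log2 scale (x axis) for 7 member probe sets (rows) with all 6 pools (diamonds) and with each pool left out in turn (other symbols). Igf1 moves toward 0 without overfed pool 1, at 0.10, while the binding proteins move furthest below 0 without lean pool 2, as far as -0.71 in Igfbp5.

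The surrounding pathway was read from a list of 24 genes, of which 23 were matched on the array. It held genes that make IGFs available, bind Igf2 mRNA, act in growth hormone signalling or sit at the receptor. With the representative probe set of each gene, 4 of the 23 had a limma unadjusted p under 0.05, 1 higher and 3 lower in overfed pools. With 1 such probe set for each of the 14217 named genes, 7.15% had such a p, 2.67% higher and 4.47% lower in overfed pools. In the list 0 had an adjusted p under 0.05. The median difference over the list was -0.01, with 11 higher and 12 lower. The 7 receptor and adaptor genes held none of the 4. The count was 2 without lean pool 3 and 2 without overfed pool 2. It was 5, 3 of them higher, with lean pool 3 and overfed pool 1 both left out, and 5, 2 of them higher, with weighted arrays. The share of all probe sets with such a p was 4.87%, 5.79%, 5.46% and 7.16% in these fits, in that order.

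Cish, a feedback inhibitor that STAT5 induces after growth hormone or prolactin, read -0.20, -0.15 and -0.10 in the overfed pools, against 0.25, 0.15 and 0.10 in the lean pools. Every overfed pool was below every lean pool. Groups without overlap, in either direction, were seen in 3 of the 23 list genes (13%), against 13.1% of all named genes. The difference was -0.32 (SE 0.08), or 1.24-fold lower, with a limma unadjusted p of 0.00615 and an adjusted p of 0.623. Its second probe set, 1388233_at, differed by -0.18 (SE 0.10), and its highest overfed pool read -0.0087 against 0.0087 in the lowest lean pool. Jak2, the kinase attached to the growth hormone and prolactin receptors, read 0.16, 0.12 and -0.0019 in the overfed pools, against -0.37, -0.21 and 0.0019 in the lean pools. Overfed pool 3 and lean pool 3 all but coincided, and the difference was 0.29 (SE 0.11, limma unadjusted p = 0.0398, adjusted p = 0.727).

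Igfals, which joins Igfbp3 and a ligand in the large circulating complex, read -0.06, -0.30 and -0.03 in the overfed pools, against 0.03, 0.14 and 0.24 in the lean pools. The groups did not overlap, and the difference was -0.26 (SE 0.11, limma unadjusted p = 0.0437, adjusted p = 0.739). Igf2bp3, a protein that binds Igf2 mRNA, read -0.14, -0.11 and -0.06 in the overfed pools, against 0.06, 0.08 and 0.13 in the lean pools with probe set 1390860_at. That difference of -0.20 (SE 0.08, limma unadjusted p = 0.0353, adjusted p = 0.719) was -0.02 and -0.11 in its 2 other probe sets, whose groups overlapped. With each of the 6 pools left out in turn, the limma unadjusted p stayed under 0.05 all 6 times for Cish, 2 times each for Igfals and Jak2 and 1 time for Igf2bp3. The difference of Cish then lay between -0.35 and -0.28.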

How the data were processed

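The authors deposited 1 table of log values for 6 arrays, taken here as log2 and centred so that the median of each probe set's 6 values was 0 within 1e-06. Per the submitters' processing notes, GCOS, Affymetrix's operating software, was used; its version, the probe set summary, the normalization and the logarithm's base were not given in the sources used here. If the base is e, the printed folds are too small and the tests stay as they are.

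Control probe sets (57) were left out. Names came from the platform annotation, updated through Entrez identifiers in RefSeq's table (assembly GRCr8), which held 20758 of 20826 singly named probe sets. No probe set named a member beside another gene. A gene's representative probe set, used for list counts and likeness, had a RefSeq mRNA accession first, then a unique type, then the lowest identifier. The overfed and lean pools were compared in limma 3.58.1 (R 4.3.3, lmFit and eBayes, no covariate), two-sided, with Benjamini-Hochberg adjustment over 31042 probe sets at a threshold of 0.05. Exact permutation tests ran over the 20 splits of 6 pools. The fit was tested on simulated data. Means, where given over markers, are over representative probe sets. Figures were drawn with matplotlib 3.10.9.

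Named were all members, list genes at an unadjusted p under 0.05, the 3 genes most like Igf1 and the 2 other members of largest SD, Egr1, and the first 2 measured markers of a list. Further granulosa, theca, liver and adipocyte markers were named to show how unevenly they made up the means of their lists. The members and lists were chosen with earlier results of these data known. The alternatives were quantile normalization, array median centring, a robust prior, weighted arrays, pool numbers as blocks, leaving out pools, and averaging a gene's probe sets. The number of pools limits the precision.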

Additional observations from a re-analysis of the deposited data

How the results depend on the processing

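All 23 member differences kept an adjusted p above 0.05 under each of the 12 alternatives run on single probe sets, and 0 of 31042 probe sets passed in any of them. The sign changed in 14 of 138 values with other settings than 1 pool left out, in 6 probe sets. With quantile normalization Igf2 1398322_at was -0.0048, Igfbp4 -0.057, and Igfbp6 -0.068 (1372168_s_at) and -0.057 (1387625_at). With array median centring Igfbp4 was -0.0011. With array weights Igf2 1398322_at was -0.0062, Igfbp4 -0.073, and Igfbp6 -0.048 and -0.031. With lean pool 3 and overfed pool 1 both left out, Igf2 was -0.0012 (1388252_at) and -0.0051 (1398322_at), Igfbp3 1386881_at 0.0094, Igfbp4 -0.16 and Igfbp6 1372168_s_at -0.032. The cause was not tested.

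With 1 pool left out in turn, 11 of the 23 probe sets kept their sign each time. The ranges of the other 12 were -0.075 to 0.62 for Igf1 1382599_at, -0.20 to 0.070 for Igf2 1371206_a_at, -0.019 to 0.054 for Igf2 1398322_at, -0.16 to 0.086 for Igf1r 1392492_at, -0.46 to 0.055 for Igfbp1 and -0.031 to 0.20 for Igfbp2. They were -0.37 to 0.045 and -0.33 to 0.17 for Igfbp3, -0.28 to 0.16 for Igfbp4, -0.30 to 0.19 for Igfbp5 1387348_at, and -0.32 to 0.30 and -0.33 to 0.34 for Igfbp6. The count of member probe sets at an unadjusted p under 0.05 ran from 0 to 6, highest without lean pool 2, and that of the pathway list from 2 to 4. In the same fits 4.87% to 7.30% of all probe sets had such a p. The pathway count was 5 with array weights and 5 with lean pool 3 and overfed pool 1 both left out.

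Whether same-numbered pools belonged together is not given in the labels used here, and correlations over 3 pools per group cannot settle it. Deviations from the group means of same-numbered pools correlated over probe sets at 0.097, 0.17 and -0.28, and lean pool 2 correlated best with overfed pool 3 (0.40). With the pool number as a replicate block the member count was 1 (Igf1r 1368123_at, unadjusted p = 0.0166, adjusted p = 0.861) and the pathway count 1, against 4 without it. Over all probe sets, 5.66% had a limma unadjusted p under 0.05 with this block. In that fit the limma unadjusted p was 0.0226 for Cish (adjusted p = 0.861), 0.0576 for Igfals, 0.0788 for Jak2 and 0.0710 for Igf2bp3 (adjusted p = 0.878 to 0.879). Averaging the probe sets of a gene gave 0 of 10 members and 3 pathway genes, and the share over all genes was not computed in that fit. Signal over background is unknown in centred values, so low probe sets could not be set aside.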
